A study of Homo sapiens with 27 samples.

Results

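K562 cells that had lost USB1 and carried a hairpin against PARN (the USB1 KO_shPARN group) were compared with K562 Control cells over mature miRNAs. The members were all mature miRNAs listed in the count tables of both groups, 1226 of the 1750 listed in either and of the 2276 listed in any table of the series. The comparison set 6 of the 27 libraries of the series against each other, 3 per group. The fit behind its p-values held all 12 K562 libraries, including the USB1 KO and Control_shPARN groups. Wild-type hESC libraries of the series served only as a reference for hESC miRNAs. K562 is an established human leukaemia line with erythroid and myeloid features. The USB1 KO_shPARN cells carried a USB1 knockout and a short hairpin RNA against PARN, and the Control cells, named WT in the count table, were labelled with neither. According to the study's methods the knockout was made with Cas9 and a guide RNA delivered by nucleofection, followed by puromycin selection and growth from single cells. How many knockout clones entered the libraries was not given, so differences between clones and effects of USB1 loss cannot be told apart. No K562 group was labelled as carrying a non-targeting hairpin, so PARN knockdown and the introduction of a hairpin cannot be told apart. The study screened its K562 clones for loss of USB1 protein by immunoblotting. Small RNA libraries do not report the messenger RNAs of USB1 and PARN, and neither the knockout nor the knockdown was checked here.

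A miRNA is a short RNA, cut from a hairpin precursor with a 5p and a 3p arm, that guides Argonaute proteins to messenger RNAs mainly through its seed, bases 2 to 8. Poly(A) polymerases such as PAPD5 can add adenosines to the 3′ end of a miRNA, which can mark it for decay. USB1, known for trimming U6 RNA, and PARN, a poly(A)-specific ribonuclease, are both 3′ to 5′ exonucleases that can remove such adenosines. The comparison addressed which miRNAs differ in level when both enzymes are depleted together.

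Mature sequences are shown first for members whose sequence bears on the results, from RefSeq (GRCh38.p14), 5′ to 3′, with the seed in capitals. The first set holds some of the rises described below, among them the abundant miR-21-5p and miR-7-5p, and miR-3529-3p, which is the exact reverse complement of miR-7-5p.
miR-1293: uGGGUGGUcuggagauuugugc
miR-551a: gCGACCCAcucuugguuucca
miR-584-5p: uUAUGGUUugccugggacugag
miR-147b-3p: gUGUGCGGaaaugcuucugcu
miR-21-5p: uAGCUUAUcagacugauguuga
miR-7-5p: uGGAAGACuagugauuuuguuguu
miR-3529-3p: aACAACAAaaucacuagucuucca
The second set holds the falls, including a pair that shares a seed (miR-301b-3p and miR-454-3p) and miR-223-3p, the myeloid miRNA that the study followed.
miR-450b-5p: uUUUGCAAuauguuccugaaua
miR-628-3p: uCUAGUAAgaguggcagucga
miR-301b-3p: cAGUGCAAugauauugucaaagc
miR-454-3p: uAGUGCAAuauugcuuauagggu
miR-223-3p: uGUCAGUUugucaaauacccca
miR-144-5p: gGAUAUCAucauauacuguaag
The third set holds members of 1 family that moved in opposite directions. miR-181b-5p and miR-181d-5p share a seed and differ by C12U, counted from the 5′ end of miR-181b-5p.
miR-181b-5p: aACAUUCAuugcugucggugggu
miR-181d-5p: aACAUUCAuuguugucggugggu

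The Control libraries held 6287087 to 10556927 miRNA counts and the USB1 KO_shPARN libraries 7670562 to 9740475. Of the 1226 members, 1080 were listed in all 4 K562 tables, and 881 passed the filter on low counts and were tested. The 345 members not tested had a median of 3.17 counts per library and took at most 0.0673% of any of the 6 libraries. Levels are given as CPM, each count scaled to a common library total, after trimmed-mean (TMM) scaling of the libraries, and a miRNA was called at an edgeR quasi-likelihood adjusted p under 0.05. Because RNA came from whole cultures, a change in the mix of cells and a change per cell cannot be told apart.

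Some libraries stood apart from their group, as the plot of marker miRNAs shows. Of the 8 hESC markers, Control libraries 1 and 2 held a summed 782 and 828 CPM before scaling, Control library 3 held 8.24 CPM and the USB1 KO_shPARN libraries 1.43 to 4.01 CPM. Control libraries 1 and 2 held the miR-302 arms at 0.331% and 0.350% of their level in the wild-type hESC libraries of the series. The next values take any hESC reads to have the profile of the wild-type hESC libraries, and the source of the reads was not tested. At the mean share over the 3 Control libraries, the hESC level of the 48 lowered miRNAs listed in hESC amounted to at most 6.86% of the Control mean (miR-3200-3p), and to 2.12% or less for the other 47. miR-675-3p, also lowered, has no hESC value here. USB1 KO_shPARN library 1 held a summed 12449 CPM of the 4 fibroblast markers, against 1166 and 394 CPM in libraries 2 and 3 and 1016 to 1571 CPM in Control, most of it miR-143-3p. Its part in the results was measured by leaving that library out. The blood and erythroid markers, 8 of 8 with counts in each of the 6 libraries, summed to 9089 to 11621 CPM in Control and 6611 to 10739 CPM in USB1 KO_shPARN.

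**Figure D1:**
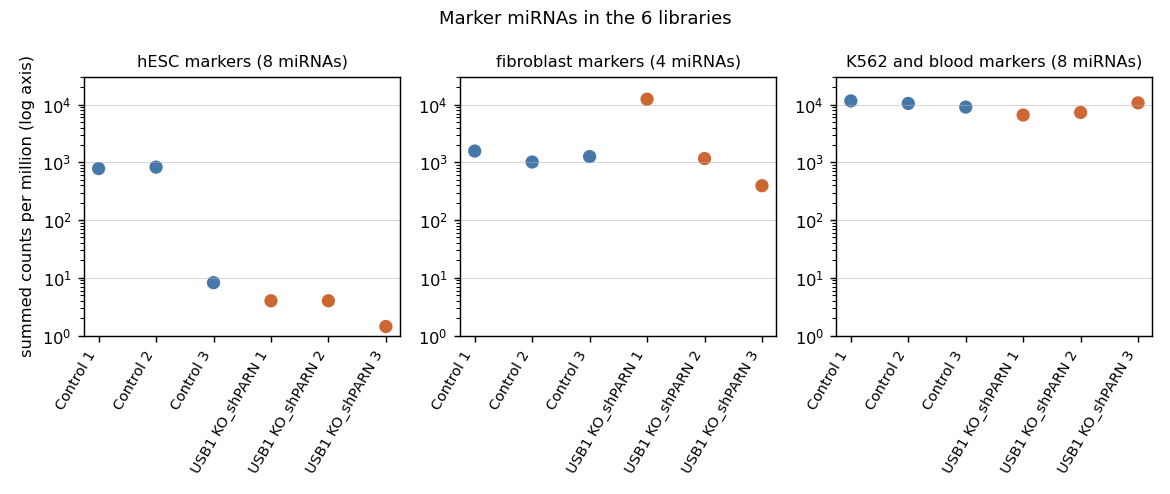
Each point is the summed level of a marker list in 1 library, in CPM before TMM scaling on a log axis, blue for Control and orange for USB1 KO_shPARN. Control libraries 1 and 2 held hESC markers at 782 and 828 CPM against 8.24 CPM in Control library 3, and USB1 KO_shPARN library 1 held fibroblast markers at 12449 CPM.

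Joint loss was accompanied by differences in both directions. Of 881 miRNAs, 75 were higher and 49 lower in USB1 KO_shPARN cells, so 14.1% were called (8.51% higher, 5.56% lower). The median absolute log2 change of the 124 was 1.18, and the median change of all 881 was 0.05. In 122 of the 124 the 3 libraries of a group all lay on 1 side of the other 3, against 33.9% of all tested miRNAs. The split depended on scaling: scaling by library totals alone gave 46 higher and 92 lower. Without USB1 KO_shPARN library 1 there were 89 calls (53 higher, 36 lower), and 77 of the 124 remained. Without Control libraries 1 and 2 together, with the lone Control library assumed to vary like the other groups, 16 calls remained (9 higher, 7 lower). Of the 124, 53 were also called in each of the 6 fits that left out 1 library.

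**Figure D2:**
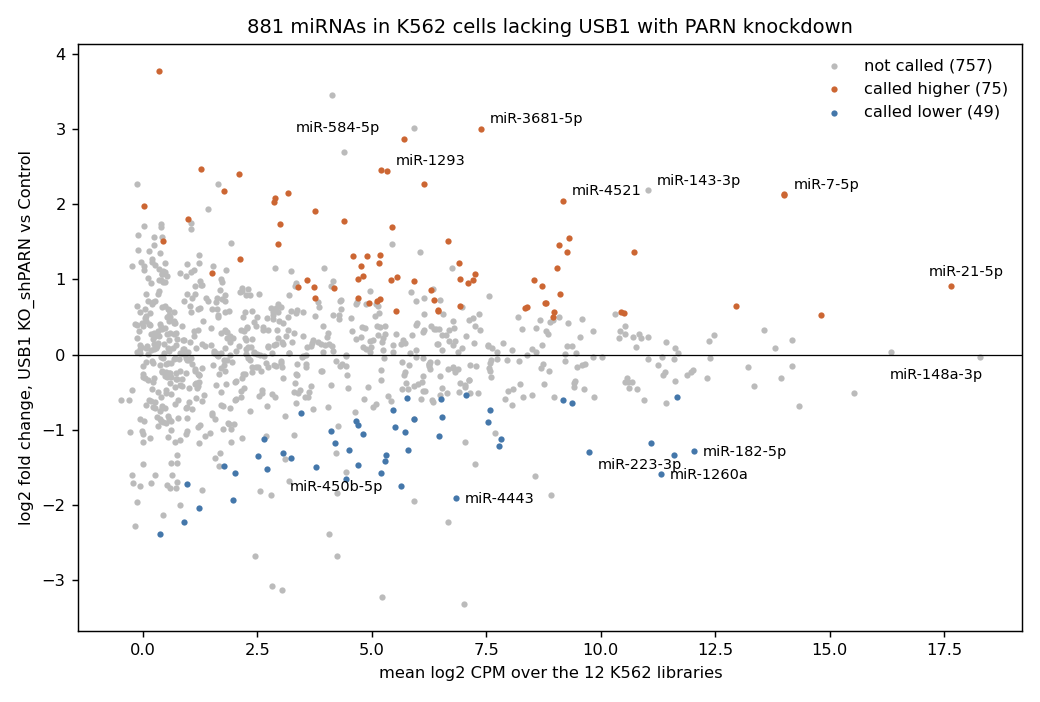
Each point is 1 of 881 miRNAs, with its mean log2 CPM over the 12 K562 libraries on the horizontal axis and its log2 change in USB1 KO_shPARN against Control cells on the vertical axis. The 75 miRNAs called higher are orange, the 49 called lower are blue and the 757 not called are grey, several of them with large changes carried by single libraries.

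The 10 named rises and 10 named falls were chosen among calls whose groups did not overlap, so their separation was fixed by the rule. Among the rises, miR-3681-5p had the largest change of the named miRNAs. This miRNA, encoded in an intron of the long non-coding RNA gene MIR3681HG (GRCh38 chromosome 2, 12199138 to 12199159), stood at 43.97, 42.98 and 51.9 CPM in Control and at 597, 385 and 134 CPM in USB1 KO_shPARN. The groups did not overlap, though the 3 USB1 KO_shPARN libraries were far apart. It rose by 3.01 (log2, standard error (SE) 0.41, edgeR adjusted p = 0.000903), or 8.04-fold, and stayed called without any 1 of the 6 libraries.

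miR-584-5p, from an intron of SH3TC2 on chromosome 5 (149062373 to 149062394), read 9.29, 11.95 and 11.0 CPM in Control and 42.1, 57.5 and 135 CPM in USB1 KO_shPARN, a rise of 2.87 (SE 0.41, edgeR adjusted p = 0.000903). miR-1293, from an intron of LIMA1 on chromosome 12 (50234182 to 50234203), read 21.9, 8.68 and 15.2 CPM in Control and 103, 86.6 and 61.4 CPM in USB1 KO_shPARN, a rise of 2.45 (SE 0.32, adjusted p = 0.000564). Both separated the groups. miR-1257 rose from 26.2, 23.2 and 22.7 CPM to 168, 103 and 76.9 CPM, or by 2.27 on the log2 scale (SE 0.31, adjusted p = 0.000564), and its lowest USB1 KO_shPARN library still lay above its highest Control library. miR-551a, from an intron of MEGF6 on chromosome 1 (3560710 to 3560730), went from 6.62, 8.54 and 3.34 CPM to 26.4, 19.2 and 23.6 CPM, a rise of 1.91 (SE 0.29, adjusted p = 0.000943). Only miR-1293 and miR-551a among the 10 named rises were called under all 18 alternative settings.

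miR-7-5p, abundant in endocrine and neural cells and known to lower epidermal growth factor receptor signalling, was the most abundant of the 10 named rises. It stood at 5989, 4076 and 9764 CPM in Control and at 38649, 29327 and 19139 CPM in USB1 KO_shPARN, without overlap, and rose by 2.14 (SE 0.37, edgeR adjusted p = 0.00358). miR-3529-3p gave 2.12 (SE 0.36, adjusted p = 0.00316). Its counts were 0.969 to 1.05 times those of miR-7-5p in every K562 library, so reads of these reverse complements cannot be told apart and the rises count as 1. Without USB1 KO_shPARN library 1 the change of miR-7-5p was 1.84, and without Control libraries 1 and 2 it was 1.57 (adjusted p = 0.12).

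The remaining named rises were miR-4521, miR-573 and miR-3158-5p. miR-4521 went from 328, 159 and 352 CPM to 1696, 907 and 866 CPM (2.05, SE 0.43, edgeR adjusted p = 0.00978) and miR-573, from an intron of DHX15, from 2.94, 2.85 and 5.83 CPM to 21.2, 18.4 and 12.5 CPM (2.16, SE 0.40, adjusted p = 0.00325). miR-3158-5p stood at 17.8, 16.4 and 16.6 CPM in Control and at 50.6, 34.8 and 193 CPM in USB1 KO_shPARN, where library 3 carried most of the rise of 2.45 (SE 0.55, adjusted p = 0.0144). That call was lost without any 1 Control library (adjusted p of 0.0535 to 0.0669). The opposite arm from the same locus, miR-3158-3p, was steadier, at 421, 342 and 336 CPM against 1258, 835 and 918 CPM, a rise of 1.45 (SE 0.19, adjusted p = 0.000564). The miR-3158 arms are reverse complements of each other over at least 16 bases, so some reads may be shared.

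**Figure D3:**
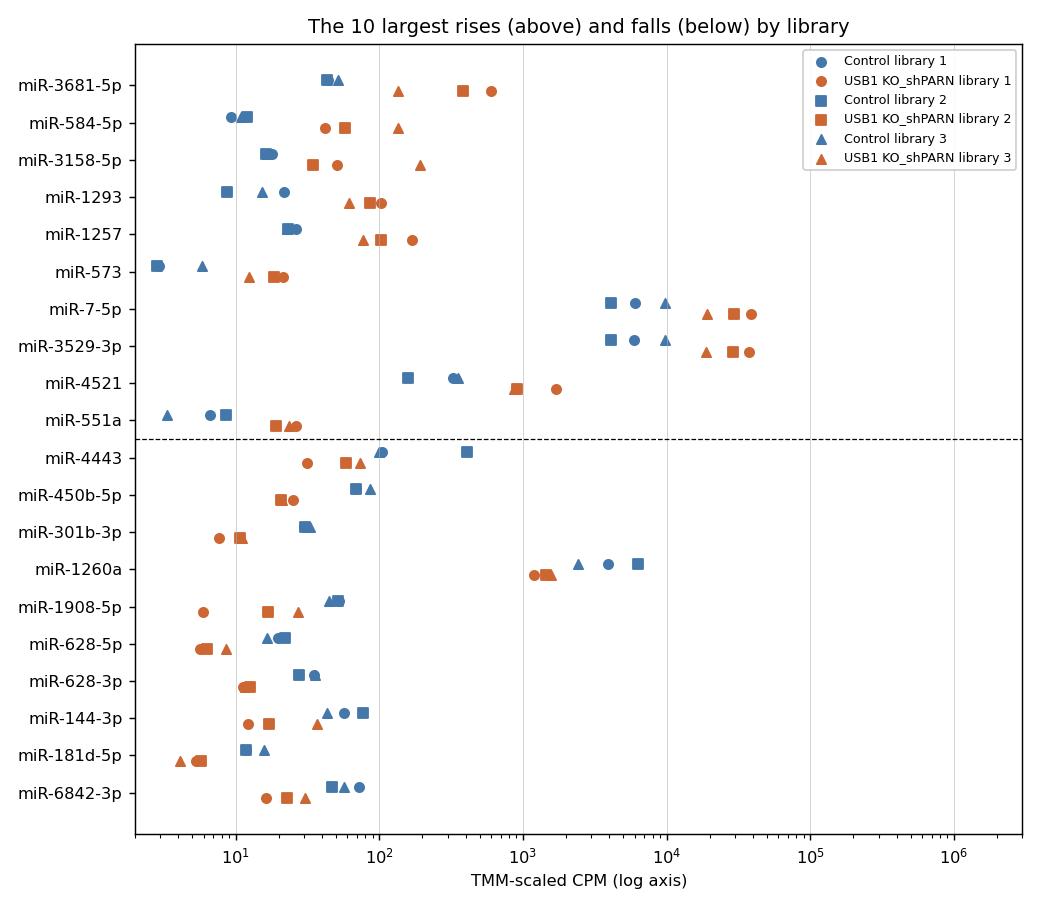
Points are TMM-scaled CPM of single libraries on a log axis, blue for Control and orange for USB1 KO_shPARN, for the 10 largest rises (above the dashed line) and the 10 largest falls (below it) chosen by the rule. The groups did not overlap for any of the 20, as the rule required, and miR-3158-5p and miR-584-5p were highest in USB1 KO_shPARN library 3 (193 and 135 CPM).

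The falls were led by miRNAs of moderate level. miR-450b-5p, encoded on chromosome X at 134540231 to 134540252, read 68.5, 68.7 and 86.4 CPM in Control and 25.2, 20.6 and 21.0 CPM in USB1 KO_shPARN. It fell by 1.74 (SE 0.21, edgeR adjusted p = 0.000458), or 3.35-fold, with little spread in either group. miR-301b-3p went from 29.7, 30.3 and 32.8 CPM in Control to 7.62, 10.7 and 11.1 CPM in USB1 KO_shPARN, a fall of 1.66 (SE 0.23, adjusted p = 0.000564). The groups of both were well separated. miR-628-3p, from an intron of CCPG1 on chromosome 15 (55372954 to 55372974), went from 35.2, 27.8 and 35.9 CPM to 11.2, 12.7 and 11.7 CPM, a fall of 1.47 (SE 0.21, adjusted p = 0.000601). Its opposite arm, miR-628-5p, fell from 19.9, 21.9 and 16.5 CPM to 5.66, 6.35 and 8.63 CPM, or by 1.50 on the log2 scale (SE 0.25, adjusted p = 0.00139). miR-450b-5p, miR-301b-3p, miR-628-3p and miR-181d-5p were called under all 18 alternative settings.

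Among the other named falls, miR-4443, miR-1260a and miR-1908-5p lost their calls when single libraries were left out. miR-4443 stood at 105, 407 and 99.9 CPM in Control and at 31.4, 58.5 and 73.0 CPM in USB1 KO_shPARN (-1.91, SE 0.54, edgeR adjusted p = 0.0423), and without Control library 2 its change was -0.92 (adjusted p = 0.0973). Its call was also lost without any 1 of the USB1 KO_shPARN libraries (adjusted p of 0.0676 to 0.16). miR-1260a had the same highest library, with 3906, 6361 and 2432 CPM in Control against 1200.0, 1440.0 and 1579 CPM (-1.59, SE 0.38, adjusted p = 0.0199). Without Control library 2 it gave -1.17 (adjusted p = 0.056), and it lost its call without USB1 KO_shPARN library 1 or 2 too (0.104 and 0.0823). Its near copy miR-1260b, which differs by U9A within the 18 bases compared, gave -1.33 (SE 0.39, adjusted p = 0.0444), lost its call in 5 of 6 fits that left out 1 library, and may share reads with it. miR-1908-5p, from an exon of FADS1 and 76.2% G and C, read 52.3, 51.4 and 44.5 CPM in Control and 5.89, 16.8 and 27.1 CPM in USB1 KO_shPARN (-1.58, SE 0.39, adjusted p = 0.0189), and lost its call without Control library 1 or 2 or USB1 KO_shPARN library 2 (adjusted p of 0.0506 to 0.0581). miR-6842-3p went from 72.3, 46.5 and 57.2 CPM in Control to 16.2, 22.8 and 30.7 CPM in USB1 KO_shPARN, a fall of 1.34 (SE 0.26, adjusted p = 0.00392), and stayed called in all 6 fits that left out 1 library.

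The most abundant miRNA, miR-148a-3p, was at 287783, 317741 and 357007 CPM in Control and at 315714, 309830.0 and 312832 CPM in USB1 KO_shPARN, and the overlapping groups gave a change of -0.04 (SE 0.19, edgeR adjusted p = 0.924). miR-21-5p, an abundant miRNA widely described as growth promoting, was second, at 141627, 113114 and 139751 CPM in Control and 289689, 277843 and 172005 CPM in USB1 KO_shPARN. All 3 USB1 KO_shPARN libraries were above Control, a rise of 0.91 (SE 0.21, adjusted p = 0.0114), and without Control library 2 the adjusted p was 0.0515. Of the 10 most abundant miRNAs, 4 were called, each higher: miR-21-5p, miR-7-5p with its reverse complement miR-3529-3p, which count as 1, and miR-151a-3p (0.53, SE 0.15, adjusted p = 0.0335). Of all tested miRNAs 14.1% were called, and of those with a RefSeq sequence and a log2 CPM over 8, 24.5%.

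Of the 5 blood-development miRNAs that the study followed, 1 was called, beside 14.1% of all tested miRNAs. miR-223-3p, which acts in granulocyte development, stood at 1411, 1045 and 1132 CPM in Control and at 379, 457 and 620.2 CPM in USB1 KO_shPARN. The group means were 1196 ± 191 and 486 ± 123 CPM (SD, n = 3), a difference of -1.30 on the log2 scale (SE 0.21, edgeR adjusted p = 0.00136). It remained called without any 1 library. miR-125a-5p read 462, 406 and 535 CPM against 301, 343 and 427 CPM, with overlap (-0.39, SE 0.19, adjusted p = 0.19). miR-142-5p gave -0.08 (SE 0.18, adjusted p = 0.803), at 619 ± 92.8 and 583 ± 146 CPM. miR-125b-5p gave 1.12 (SE 0.70, adjusted p = 0.314), with 35.7 CPM in USB1 KO_shPARN library 1 against 7.2 and 5.28 CPM in the other 2, and -0.27 without that library. The list as a whole had a median of -0.39, beside 0.05 for all tested miRNAs. The study followed these 5 with results of its own libraries in view, so the direction of the list is not independent evidence.

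miR-199a-3p was at 41.4, 80.3 and 81.3 CPM in Control and 40.5, 40.4 and 31.3 CPM in USB1 KO_shPARN, where Control library 1 lay close to the USB1 KO_shPARN range (-0.85, SE 0.27, edgeR adjusted p = 0.0529). miR-199b-3p has the identical sequence over all 22 bases and gave -0.86 (SE 0.27, adjusted p = 0.0467), with overlapping groups and a call lost in 5 of 6 fits that left out 1 library. The adjusted p of this 1 molecule thus fell on either side of the threshold depending on which name its reads were listed under. The 6 opposite strands of the followed miRNAs gave 0 calls by edgeR and by DESeq2, with 0 at an unadjusted p under 0.05, changes of -1.70 to 1.20 and a median of 0.19. By edgeR 14.1% of all tested miRNAs were called, so 0 of 6 is not a result about these strands. One of them, miR-223-5p, gave -0.56 (SE 0.39, adjusted p = 0.364), at 939 ± 367 and 635 ± 236 CPM.

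Of 5 erythroid miRNAs tested, both arms of the miR-144 hairpin fell and 0 rose, beside 5.56% of all tested miRNAs called lower. The median change of the 5 was -0.56. miR-144-5p, from a cluster active in red cell precursors at chromosome 17, read 320.1, 346 and 315 CPM in Control and 123, 116 and 183 CPM in USB1 KO_shPARN, a fall of 1.22 (SE 0.19, edgeR adjusted p = 0.00136) without overlap. The opposite arm, miR-144-3p, went from 57.0, 77.0 and 43.0 CPM to 12.1, 17.2 and 36.8 CPM (-1.42, SE 0.38, adjusted p = 0.0254) and lost its call without Control library 1 or 2 or USB1 KO_shPARN library 1 or 2 (adjusted p of 0.0661 to 0.103). miR-451a, the red cell miRNA cut by Argonaute 2, gave -0.56 (SE 0.18, adjusted p = 0.0545), at 503 ± 63.4 and 341 ± 27.5 CPM. miR-486-5p gave -0.04 (SE 0.15, adjusted p = 0.889), and miR-486-3p -0.03, and both changed sign in some fits that left out 1 library. The myeloid and immune list gave 1 call of 7 tested, the same miR-223-3p, with a median of -0.51. Over all tested miRNAs 14.1% were called, so this count is not a result about the list. The most abundant of that list, miR-146b-5p, gave -0.51 (adjusted p = 0.161).

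Members of the miR-181 family moved in opposite directions. miR-181b-5p rose from 21.1, 20.5 and 24.7 CPM to 55.9, 56.8 and 54.2 CPM, or by 1.33 on the log2 scale (SE 0.16, edgeR adjusted p = 0.000458). miR-181a-5p went from 17.2, 21.2 and 17.9 CPM in Control to 45.0, 32.4 and 35.6 CPM in USB1 KO_shPARN, a rise of 1.01 (SE 0.21, adjusted p = 0.00674). miR-181d-5p fell from 11.8, 11.8 and 15.8 CPM to 5.31, 5.74 and 4.12 CPM, or by 1.37 on the log2 scale (SE 0.24, adjusted p = 0.00234). All 3 separated the groups. The 3 share a seed. miR-181a-5p and miR-181b-5p have copies close together on chromosome 1 (198859108 to 198859130 and 198858925 to 198858947) in an intron of MIR181A1HG. miR-181d-5p is encoded apart from these, on chromosome 19 (13874910 to 13874932) in an intron of NANOS3. miR-181c-3p, also from an intron of NANOS3, was called lower too (-2.05), at a mean of 3.76 CPM in Control.

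The miR-221 and miR-222 arms were 4 of 4 above 0, and 3 were called higher. Of all 881 tested miRNAs, 470 were above 0 and 8.51% were called higher. miR-222-3p, which targets the KIT receptor and the cell cycle inhibitor CDKN1B, went from 308, 220.3 and 365 CPM in Control to 592, 666 and 418 CPM in USB1 KO_shPARN, a rise of 0.91 (SE 0.26, edgeR adjusted p = 0.0345), and lost its call without any 1 of Control libraries 1 and 2 and USB1 KO_shPARN libraries 1 and 2. miR-221-3p, with the same seed, rose from 336 ± 26.5 CPM to 539 ± 88.1 CPM (SD, n = 3), or by 0.68 on the log2 scale (SE 0.18, adjusted p = 0.022), and lost its call without Control library 1 or 2 or USB1 KO_shPARN library 2. miR-222-5p was called at a low level (2.47, SE 0.57, adjusted p = 0.0116), at 0.739 ± 0.23 and 4.05 ± 2.62 CPM, and lost its call without Control library 1 or 3 or USB1 KO_shPARN library 1. The 5p arms of the miR-183, miR-96 and miR-182 cluster, often raised in cancers, were below 0 in 3 of 3, with 2 falls. Of all 881 tested miRNAs, 411 were below 0 and 5.56% were called lower. miR-182-5p went from 8147, 4651 and 6102 CPM in Control to 2904, 3066 and 1798 CPM in USB1 KO_shPARN, a fall of 1.28 (SE 0.27, adjusted p = 0.00654). miR-183-5p fell from 3302 ± 631 CPM to 1463 ± 357 CPM, or by 1.17 on the log2 scale (SE 0.22, adjusted p = 0.00389), and miR-96-5p gave -0.23 (adjusted p = 0.549). The 3p arms of this cluster were not called. miR-183-3p gave -0.47, miR-182-3p -0.13 and miR-96-3p 0.72 (edgeR adjusted p of 0.443, 0.817 and 0.19).

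Counts in the next 3 lists stand beside 5.56% of all tested miRNAs called lower and 8.51% called higher. A single call in a list is not a result about that list. In the miR-130, miR-301 and miR-454 family, which share a seed, 2 of 4 tested fell and 0 rose: miR-301b-3p, described above, and miR-454-3p. miR-454-3p went from 193, 185 and 263 CPM in Control to 108, 133 and 103 CPM in USB1 KO_shPARN, a fall of 0.90 (SE 0.19, edgeR adjusted p = 0.00638). Their relatives miR-130b-3p (-0.22, adjusted p = 0.371) and miR-301a-3p (0.52, adjusted p = 0.284) were not called. The miR-15 and miR-16 family had 1 fall of 6, miR-424-5p (-1.53, SE 0.30, adjusted p = 0.00479). The miR-17/92 list, growth-promoting clusters with their paralogs, had 1 rise of 13, miR-19a-3p (1.36, SE 0.31, adjusted p = 0.0134), which went from 836, 504 and 1129.8 CPM to 2424, 2464 and 1460.1 CPM and lost its call without Control library 1 (adjusted p = 0.0535).

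Several families gave 0 calls, beside 14.1% of all tested miRNAs called, and these counts in short lists are not a result about the families. The let-7 family, which restrains growth genes, gave 0 calls of 9 (median -0.27, range -0.45 to 0.47). The same held for the group of miR-10, miR-125, miR-99 and miR-100 (7 tested, median 0.71), the miR-29 (3 tested, 0.07), miR-30 (5 tested, -0.17), miR-200 (3 of 5 tested, -0.16) and miR-148 and miR-152 (3 tested, -0.36) families and C19MC (10 of 19 tested, 0.33). Mirtrons, made by splicing without Drosha, also gave 0 calls (5 of 12 tested, -0.50), as did 2 tested p53-induced miRNAs (-0.09) and 2 tested hESC markers (-1.82), the last in groups with hESC miRNAs in Control libraries 1 and 2. At an unadjusted edgeR p under 0.05 these lists held 3 let-7 miRNAs, 2 of the miR-10 group, 0 of miR-29, 1 of miR-30, 0 of miR-200, 1 of miR-148 and miR-152, 1 of C19MC, 2 mirtrons, 0 p53-induced miRNAs and 2 hESC markers, and DESeq2 called 1 let-7 miRNA, 1 of miR-30, 2 mirtrons and 1 hESC marker. Single calls came from the miR-23, miR-27 and miR-24 clusters (miR-27a-3p, 0.55, SE 0.17, edgeR adjusted p = 0.0423, 1 of 5) and the miRNAs described as targeting p53 (miR-1285-3p, 0.58, adjusted p = 0.0323, 1 of 6). The miR-320 family, made without Drosha, with miR-484 gave 2 rises of 6, miR-320d (0.998, adjusted p = 0.0323) and miR-320c (0.68, adjusted p = 0.0395), which have near-identical sequences. These 4 calls (miR-27a-3p, miR-1285-3p, miR-320d and miR-320c) were each lost in 4 or 5 of the 6 fits that left out 1 library. The fibroblast list gave 1 rise of 3 tested, miR-145-5p (0.95, SE 0.24, adjusted p = 0.0196), with 252, 151 and 139.6 CPM in USB1 KO_shPARN, and it was 0.61 (adjusted p = 0.0731) without the library high in miR-143-3p and lost its call without Control library 1 or 2 too (0.0774 and 0.0802). Of 7 tested blood and erythroid markers 3 fell (miR-144-3p, miR-144-5p and miR-223-3p) and 0 rose.

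Members encoded close together were grouped after their values were seen, so the groups are a description without a test. Of all 881 tested miRNAs, 5.56% were called lower and 8.51% higher, and 411 were below 0 and 470 above. On chromosome X between 134540185 and 134546711, all 7 tested arms were below 0 and 6 were called: miR-450b-5p, miR-424-5p, miR-424-3p (-1.28, SE 0.28, edgeR adjusted p = 0.00866), miR-450a-5p (-1.27, SE 0.21, adjusted p = 0.00136), miR-542-3p (-1.18, SE 0.23, adjusted p = 0.00492) and miR-503-5p (-0.93, SE 0.25, adjusted p = 0.0245), the last of which lost its call in 5 of 6 fits that left out 1 library. miR-424-3p was at 64.2, 73.7 and 80.2 CPM in Control and at 30.1, 30.3 and 29.6 CPM in USB1 KO_shPARN, and the groups of the other 6 did not overlap either. The seventh arm, miR-450a-2-3p, was not called (-1.77, SE 0.58, adjusted p = 0.0553), at 1.93, 2.70 and 1.72 CPM in Control and 0.693, 0.855 and 0.258 CPM in USB1 KO_shPARN. miR-542-3p and miR-450a-2-3p were placed by the name of their hairpin. In the miR-17/92 hairpins on chromosome 13 (91350605 to 91351391), all 12 tested arms were above 0 and 5 were called: miR-19a-3p, miR-92a-1-5p (0.996), miR-19b-1-5p (0.74), miR-17-3p (0.65) and miR-18a-3p (0.49), with adjusted p of 0.00486 to 0.0423. The last 3 lost their calls in 5, 3 and 6 of 6 fits that left out 1 library, in the order given. Scaling by library totals left miR-92a-1-5p and miR-19a-3p called, and the other 3 at adjusted p of 0.169 to 0.311. The uncalled miR-19b-3p (0.01, SE 0.20) and miR-92a-3p (0.04, SE 0.13) lay within their SE of 0 under TMM scaling.

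The arms of a hairpin were compared with each other. Of 189 hairpins with both arms tested, 13 had both arms called, each pair in 1 direction (8 higher, 5 lower), and 35 had 1 arm called, with the other arm on the same side of 0 in 29. Of the 141 with neither arm called, 80 had both arms on 1 side of 0, as had 122 of all 189. Across the 189 pairs, which share their libraries and hairpin, Pearson's r of the log2 changes was 0.52. Pairs called higher included miR-9, known from neurons, at 339, 277 and 236 CPM in Control and 745, 685 and 756 CPM in USB1 KO_shPARN for miR-9-5p (1.36, SE 0.22, edgeR adjusted p = 0.00136), and miR-9-3p (1.70, SE 0.25, adjusted p = 0.000903). miR-132-3p rose by 1.07 (SE 0.16, adjusted p = 0.000943) with miR-132-5p (1.22, SE 0.20, adjusted p = 0.0015). The more abundant arm was called in 20 higher and 17 lower cases of 184 distinct arms (20.1%) and the less abundant arm in 16 higher and 8 lower of 189 (12.7%), beside 14.1% of all tested miRNAs (8.51% higher, 5.56% lower). Calls also moved with level: 6.99% of miRNAs with a RefSeq sequence were called under a log2 CPM of 4, 25.4% at 4 to 8 and 24.5% over 8.

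**Figure D4:**
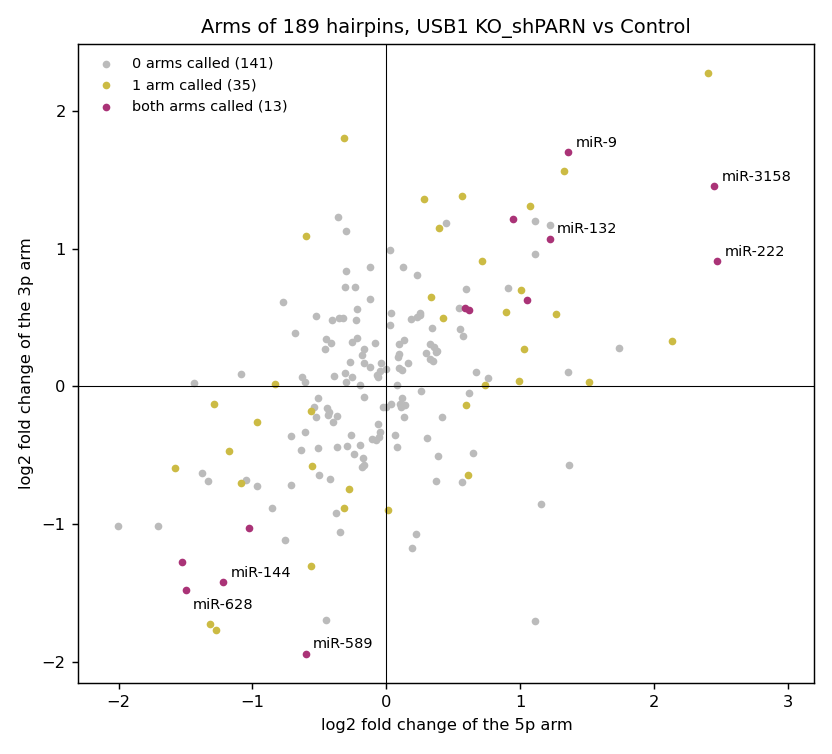
Each point is 1 of 189 hairpins, with the log2 change of its 5p arm on the horizontal axis and of its 3p arm on the vertical axis, in USB1 KO_shPARN against Control cells. The 13 hairpins with both arms called (purple) all lay in the quadrants where both arms moved the same way.

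The 3′ end of the mature sequence, where deadenylation acts, was compared for the 777 tested miRNAs with a RefSeq sequence. The median log2 change was 0.01 for those ending in A (157 miRNAs, 18.5% called), 0.06 for C (156, 14.1%), 0.07 for G (232, 10.8%) and 0.03 for U (232, 15.5%), beside 0.04 for all 777. Of the 72 with 2 or 3 adenosines in the last 3 bases, 1 rose and 4 fell, of the 326 with 1 adenosine 32 rose and 28 fell, and of the 379 with none 35 rose and 12 fell. The medians of these classes were 0.01, 0.03 and 0.05. Of all 777, 68 rose and 44 fell (14.4% called). At a mean log2 CPM of at least 4, the classes gave 0 rises and 2 falls of 24, 20 and 20 of 126, and 30 and 8 of 169. Differences between the classes were not tested. These letters are those of the reference sequence, and added tails were not analysed here.

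The joint loss was set beside each single loss in the same fit. USB1 KO against Control gave 45 calls (5.11%, with 1.93% higher and 3.18% lower) and Control_shPARN against Control 13 (1.48%, with 1.25% higher and 0.227% lower), and both share the Control libraries with the joint comparison. Of the 10 named rises, 4 were also called higher in USB1 KO cells (miR-3681-5p, miR-584-5p, miR-1257 and miR-551a) and 0 in Control_shPARN cells. Of the 10 named falls, 2 were called lower in USB1 KO cells (miR-450b-5p and miR-6842-3p) and 0 in Control_shPARN cells. Called or not, changes in Control_shPARN cells had the same sign for 10 of the rises and 9 of the falls (medians 0.82 and -0.43). In USB1 KO cells this held for 10 and 10 (medians 1.03 and -0.77). These signs rest on the Control libraries of the joint comparison and are not independent of it. Set directly against USB1 KO cells, where 14.8% of miRNAs were called (9.08% higher, 5.68% lower), 5 of the rises, with miR-7-5p and miR-3529-3p that count as 1, and 5 of the falls, with both miR-628 arms, were called in USB1 KO_shPARN cells. Set against Control_shPARN cells, where 9.19% were called (4.99% higher, 4.2% lower), 8 and 7 were, again with both miR-628 arms. The 20 were chosen on the same USB1 KO_shPARN libraries, so nothing is read from the excess over these shares. USB1 KO library 3 stood apart, with 1530929 counts against 9472475 and 9794669 in libraries 1 and 2, and with fibroblast markers at 5806 CPM against 894 and 1217 CPM. Without it, USB1 KO against Control gave 31 calls (13 higher, 18 lower), with 3 of the named rises (miR-584-5p, miR-1257 and miR-551a) and 0 of the falls. Against USB1 KO cells there were then 94 calls (48 higher, 46 lower), with 3 of the rises (miR-3158-5p, miR-1293 and miR-573) and 4 of the falls (miR-450b-5p, miR-301b-3p and both miR-628 arms). In that fit Control_shPARN against Control gave 21 calls (15 higher, 6 lower), with 0 of the rises and 1 of the falls (miR-144-3p). miR-584-5p gave 3.05 (SE 0.41) in USB1 KO cells, and USB1 KO_shPARN differed from them by -0.19 (edgeR adjusted p = 0.797).

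Some members differed from both single losses, and those given here were picked by their values. Of all 881 tested miRNAs, 14.8% were called against USB1 KO cells and 9.19% against Control_shPARN cells. The share called against both is not given here, so nothing is read from the number of such members. miR-628-3p gave -0.18 in USB1 KO and -0.20 in Control_shPARN cells, and USB1 KO_shPARN was lower than each, by -1.29 (edgeR adjusted p = 0.00275) and -1.28 (adjusted p = 0.00237). miR-147b-3p, from an exon of C15orf48 on chromosome 15 and chosen after its values were seen, was at 14.3, 13.2 and 9.17 CPM in Control and 44.9, 36.9 and 44.4 CPM in USB1 KO_shPARN (1.78, SE 0.22, adjusted p = 0.000458). In the single losses it gave 0.22 and 0.26, and USB1 KO_shPARN lay above them by 1.56 (adjusted p = 0.0017) and 1.52 (adjusted p = 0.00126). miR-3158-3p and miR-301b-3p were likewise called against both. miR-223-3p gave -0.64 in USB1 KO cells (edgeR adjusted p = 0.104) and -0.28 in Control_shPARN cells (adjusted p = 0.624), and USB1 KO_shPARN was below both, by -0.66 (adjusted p = 0.0467) and -1.02 (adjusted p = 0.00966). These differences from USB1 KO cells were also called without USB1 KO library 3.

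Other members were set against each single loss in the same way. miR-21-5p rose in Control_shPARN cells (1.29, SE 0.21, edgeR adjusted p = 0.0132) and gave -0.17 in USB1 KO cells, and USB1 KO_shPARN differed from Control_shPARN by -0.38 (adjusted p = 0.257). miR-144-5p fell in Control_shPARN cells too (-1.56, SE 0.20, adjusted p = 0.0017) and gave -0.15 in USB1 KO cells. miR-9-5p rose more in USB1 KO cells (2.06, SE 0.22, adjusted p = 0.000153) and gave -0.17 in Control_shPARN cells, and USB1 KO_shPARN was lower than USB1 KO by -0.71 (adjusted p = 0.0457).

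**Figure D5:**
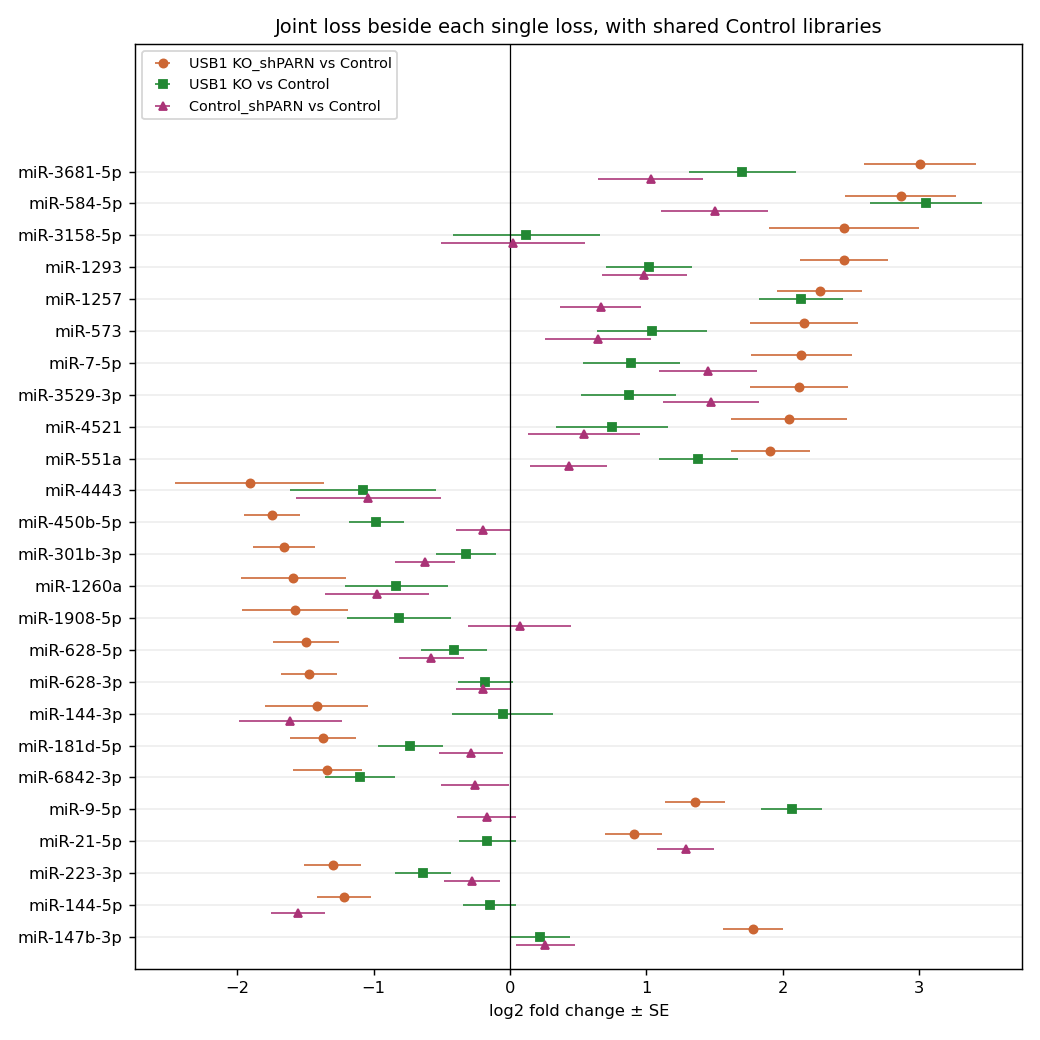
Points are log2 changes with their SE for the 20 named rises and falls and for miR-9-5p, miR-21-5p, miR-223-3p, miR-144-5p and miR-147b-3p, in USB1 KO_shPARN (orange), USB1 KO (green) and Control_shPARN cells (purple), each against the same Control libraries. miR-628-3p and miR-147b-3p were near 0 in both single losses and at -1.47 and 1.78 in the joint loss.

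The medians of the 14q32 cluster, a large imprinted miRNA cluster, were unlike in the knockout groups. Of 19 of its 31 listed miRNAs tested, the median change against Control was -0.75 in USB1 KO_shPARN cells with 1 call (miR-134-5p, -1.58, SE 0.42, edgeR adjusted p = 0.0237, lost in 4 of 6 fits that left out 1 library), -2.86 in USB1 KO cells (-3.19 without USB1 KO library 3) and -0.20 in Control_shPARN cells. The 1 call of 19 stands beside 14.1% of all tested miRNAs and is not a result about the cluster. miR-134-5p was higher in USB1 KO_shPARN than in USB1 KO cells by 2.05 (adjusted p = 0.0283). Whether the knockout groups with and without the hairpin came from the same clone was not given.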

How the data were processed

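Small RNA libraries of K562 cells were analysed. Per the study's methods, total RNA entered a small RNA library kit. Adapter removal (cutadapt 2.5), alignment to miRBase 22 (Bowtie2 2.2.9) and counting (SAMtools 1.3.1) were done by the authors, as methods and labels give them. They deposited unnormalised raw counts of mature miRNAs, with a column for each library. A miRNA without a count in the first library of a table is left out of that table, so its counts in the other libraries are unknown. The Control columns are headed WT, and were assigned to their group by the table that the labels name. Reverse complements such as miR-7-5p and miR-3529-3p have near-equal counts, so strand was apparently not used. Adaptor entries (0.0104 to 0.206% of counts) were removed, and 0 columns were left out.

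One edgeR 4.0.16 quasi-likelihood fit (R 4.3.3, TMM scaling, robust dispersion, no replicate term) held the 12 K562 libraries of 4 groups, after filterByExpr (minimum count 10, minimum total 15). P-values were adjusted by Benjamini-Hochberg within a comparison, with 0.05 as threshold. The labels do not say whether libraries came from separate cultures. For miRNA sequencing of wild-type and USB1 knockout K562 cells, the study's legends give 3 biological replicates. They do not cover the groups with the hairpin against PARN. The p-values measure only the spread between these libraries, which may be technical. Replicate libraries differed by 143 to 689 times counting error (chi-square per degree of freedom), so none was counted as a duplicate. The fit was tested on simulated data. Named miRNAs were the 10 largest changes per direction among calls whose groups did not overlap and whose average level reached a log2 CPM of 3, the miRNAs followed by the study with opposite strands, and up to 4 members of described lists, those with the highest mean CPM. Others were chosen after their values were seen. Members and the 26 lists were chosen with earlier results of these data known. DESeq2 1.42.0, other scalings, other filters and leaving out libraries were the alternatives. Host genes are from GENCODE 44. Sequences came from the RefSeq table, which matched 777 of 881 tested miRNAs.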

Additional observations from a re-analysis of the deposited data

Results flagged for a closer look

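miR-302a-5p, an hESC miRNA absent from the USB1 KO_shPARN table and so outside the comparison, had 6927 counts in Control library 1 and 4616 in Control library 2, against 0 in Control library 3. USB1 KO_shPARN library 1 had 0, because tables list only miRNAs counted in their first column, and its counts in libraries 2 and 3 are unknown. It was singled out because this signal lies in data that the comparison does not use. Where these counts came from was not tested.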

How the results depend on the processing

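The 124 calls (75 higher, 49 lower) became 127 under median-ratio scaling, 118 under upper-quartile scaling, 110 without a filter on low counts, 135 with a floor of 10 CPM, 125 without robust shrinkage, 86 with the 6 libraries alone, 165 by DESeq2 (90 higher, 75 lower) and 147 without USB1 KO library 3. Scaling by library totals gave 138 calls (46 higher, 92 lower) and moved the median of all miRNAs to -0.14. Leaving out 1 library gave 73 to 113 calls, 41 to 68 higher and 28 to 45 lower. The lowest total was without Control library 1 (73), followed by Control library 2 and USB1 KO_shPARN library 2 (79 each) and Control library 3 (82). Leaving out Control libraries 1 and 2 gave 16 calls (9 higher, 7 lower), and without USB1 KO_shPARN library 1 as well there were 15 (9 higher, 6 lower), with 1 Control library assumed to vary like the other groups. Without USB1 KO library 3, calls lower in USB1 KO than Control went from 28 to 18 and calls higher in USB1 KO_shPARN than USB1 KO from 80 to 48. These exclusions were chosen after seeing the data. Fewer libraries entered these fits, and why the counts changed was not tested.

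Replicate numbers showed no clear pairing of Control with USB1 KO_shPARN libraries: deviations of same-numbered libraries from their group means correlated at 0.05, -0.08 and -0.00. With so few libraries per group, some of them standing apart, these values cannot decide whether a number marks a shared day or culture. With the number as a replicate block 105 miRNAs were called (63 higher, 42 lower), 99 of them among the 124, and the uncalled change of miR-3158-5p in Control_shPARN cells moved from 0.02 to -0.028. Without USB1 KO library 3 its uncalled change in USB1 KO cells was -0.12.

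Estimates that changed sign were all uncalled. Leaving out 1 library gave -0.055 to 0.21 for miR-125a-3p, -0.21 to 0.038 for miR-486-5p, -0.28 to 0.059 for miR-142-5p, -0.35 to 0.13 for miR-486-3p, -0.11 to 0.041 for miR-148a-3p, -0.27 to 1.53 for miR-125b-5p, -1.54 to 1.71 for miR-199a-5p and -0.72 to 2.75 for miR-143-3p. Library totals gave -0.12 for miR-125a-3p. Without Control libraries 1 and 2 the values were 0.057 for miR-486-5p, 0.0027 for miR-142-5p and 0.21 for miR-486-3p. Without USB1 KO_shPARN library 1 as well they were 0.14, 0.17 and 0.39, with -0.34 for miR-125b-5p, -1.12 for miR-199a-5p and -0.74 for miR-143-3p. The cause was not tested.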

Other observations

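Of the uncalled miRNAs whose average log2 CPM reached 3, 10 changed by 2 or more on the log2 scale (4 up, 6 down), and single libraries or groups of wide spread carried them. miR-143-3p stood at 13712 CPM in USB1 KO_shPARN library 1 against 1126 and 249 CPM in the other 2, and miR-122-5p, a liver miRNA, at 509 CPM against 28.4 and 7.08 CPM. miR-4483 was at 145 CPM in USB1 KO_shPARN library 3 against 7.04 and 11.0 CPM. miR-3960 read 145, 182 and 111 CPM in Control and 1.15, 16.4 and 26.4 CPM in USB1 KO_shPARN (-3.32, SE 1.40, edgeR adjusted p = 0.164), with library 1 lowest, as it was for the called miR-1908-5p.

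The largest called rise and fall, and miR-4745-5p, were at levels below the rule for naming. miR-3201 was at 0.092, 0.142 and 0.382 CPM in Control and 5.54, 2.2 and 1.42 CPM in USB1 KO_shPARN (3.78, SE 0.87, edgeR adjusted p = 0.0114), and lost its call without Control library 1 or USB1 KO_shPARN library 1. miR-4745-5p went from 1.48 ± 0.472 to 7.99 ± 0.691 CPM (SD, n = 3; 2.41, SE 0.32, adjusted p = 0.000564). The largest called fall, miR-3065-5p, was at 1.38, 0.427 and 2.1 CPM in Control and 0.115, 0.244 and 0.386 CPM in USB1 KO_shPARN (-2.38, SE 0.69, adjusted p = 0.0362), and lost its call in 4 of 6 fits that left out 1 library. Of 8 members tested in a fit of the 6 libraries alone but not in the fit of 12, miR-369-3p was called (-2.36, SE 0.58, adjusted p = 0.0398).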
